A study of Mus musculus with 106 samples.

Results

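Branched-chain amino acid catabolism was followed through 10 genes, chosen by name: Bcat1, Bcat2, Slc25a44, Bckdha, Bckdhb, Dbt, Ppm1k, Ivd, Mccc1 and Hibadh. All 10 were found in each of the 4 deposited count tables, which hold 21647 to 23420 genes. The study housed male C57BL/6J mice at 10 °C or 34 °C and compared their tissues with those of mice kept at 22 °C. The series has 106 libraries of bulk RNA, of which 75 entered 11 tissue comparisons at 10 °C and 30 entered 5 tissue comparisons at 34 °C.

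Mice were 8 weeks old at the start. The labels give an age of 11 weeks in the cold experiment and 12 weeks in the warm, with quadriceps at 12 weeks in both. The cold groups were kept for 2 weeks at 10 °C, after steps of 5 days each at 18 °C and at 14 °C, and the warm groups spent 4 weeks at 34 °C. No mouse carried a transgene or a deletion, and the cold and warm experiments used mice of different suppliers, each with its own 22 °C controls. At 10 °C the tissues were interscapular brown fat (iBAT), inguinal subcutaneous fat (ingSAT), perigonadal visceral fat (pgVAT), quadriceps, liver, ileum, spleen, bone marrow, spinal cord, brain and hypothalamus. At 34 °C they were iBAT, ileum, liver, brain and quadriceps. Most libraries were pools of 2 mice, and groups held 3 libraries, except for bone marrow (6 libraries a group, single mice), spinal cord (5 a group, single mice) and the 22 °C brain of the cold experiment (2 of its 3 libraries). For iBAT of the warm experiment the study's sources differ on whether the libraries are pools or mostly single mice.

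Leucine, isoleucine and valine are first transaminated, by the cytosolic enzyme Bcat1 or the mitochondrial enzyme Bcat2. The resulting keto acids are decarboxylated in the mitochondrion by the branched-chain keto acid dehydrogenase (BCKDH) complex, whose decarboxylase subunits are Bckdha and Bckdhb and whose acyltransferase is Dbt. The phosphatase Ppm1k activates the complex and the kinase Bckdk inhibits it. Slc25a44 is the carrier that brings branched-chain amino acids into mitochondria, and brown fat uses them as a fuel during thermogenesis. Further down, Ivd and Mccc1 act on leucine, and Hibadh on valine.

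Library totals ranged from 4262403 to 58290770 counts at 10 °C and from 29545458 to 62880248 at 34 °C. Some libraries stood apart in RNA of other tissues. In pgVAT, 2 of the 3 libraries at 10 °C held large amounts of epididymis RNA. The 22 °C brain library of replicate 2, which is left out of the temperature comparison, had 37865 CPM (counts scaled to a common library total) of Alb, the albumin gene of hepatocytes, against 1.57 and 2.88 in the other brain libraries. Cells of different types were not separated, so that a change in the number of cells of a type and a change in the RNA per cell cannot be told apart.

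A gene is said to have risen or fallen where the adjusted p of edgeR's quasi-likelihood test, corrected over all genes of that comparison, was under 0.05. At 10 °C, 3 of 108 tests of these genes passed this limit, against 3.32% of all gene tests in the same 11 comparisons: Slc25a44 rose in iBAT, Ppm1k fell in iBAT, and Bcat1 rose in bone marrow. At 34 °C, 3 of 46 passed, against 5.74% of all gene tests in the 5 comparisons: Slc25a44, Bckdha and Mccc1, each lower in iBAT. The study itself called genes on the unadjusted p, up to 0.05, together with a change of more than 1.5-fold, and on that rule 4 values passed at 10 °C, against 4.82% of all gene tests, and 1 at 34 °C, against 5.34%.

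**Figure D1:**
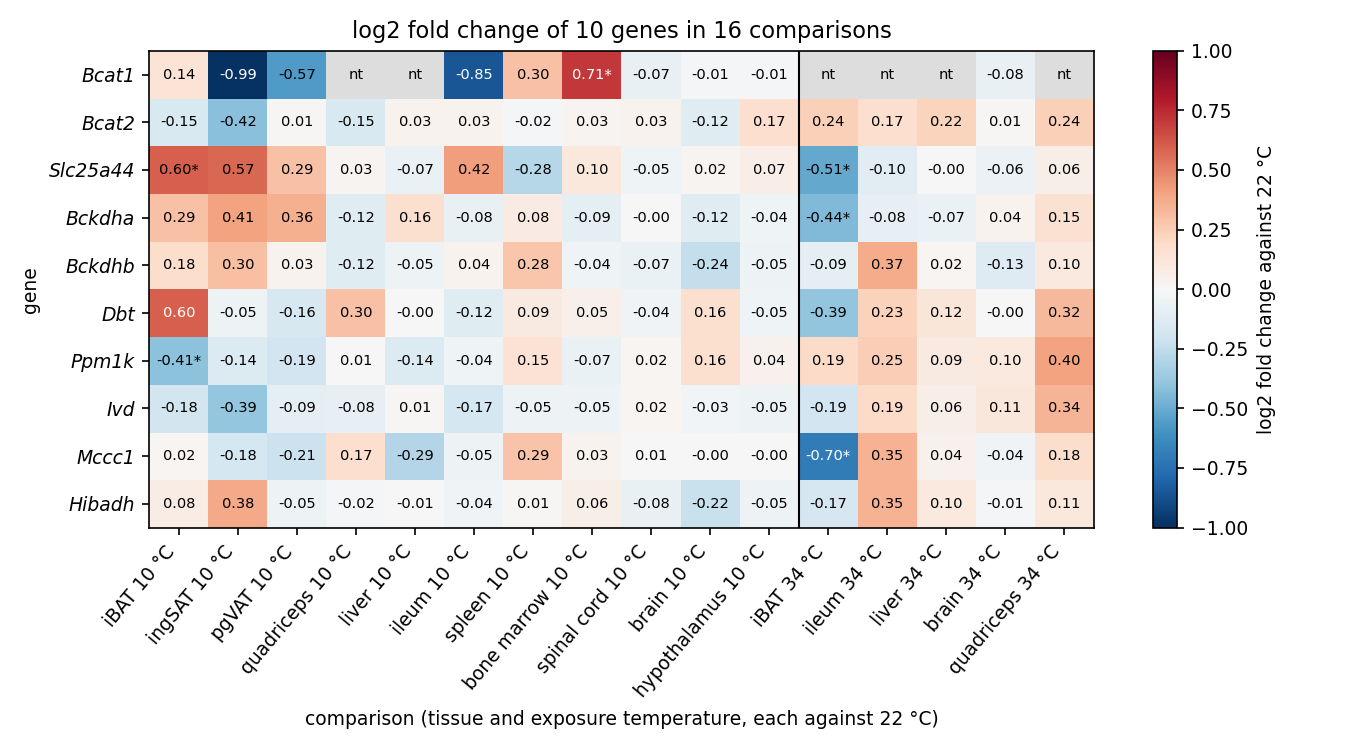
log2 fold change of each gene (rows) in each comparison (columns, tissue and temperature against 22 °C), with an asterisk where the adjusted p was under 0.05 and nt where the gene was under the filter on low counts. The 6 marked cells lie in iBAT at 10 °C, bone marrow at 10 °C and iBAT at 34 °C.

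In iBAT, the mitochondrial carrier Slc25a44 (GRCm38 chr3:88410498-88425139, minus strand) was higher at 10 °C and lower at 34 °C. Its CPM, scaled for library composition (TMM), was 163, 165 and 165 in the 22 °C libraries and 255, 249 and 243 in the 10 °C libraries. The groups did not overlap, and the difference was many times the spread within either group. The rise was 0.60 ± 0.11 (SE) on the log2 scale, a 1.51-fold change, with an adjusted p of 0.0090. In the warm experiment the values were 152, 174 and 172 CPM at 22 °C and 110, 122 and 116 CPM at 34 °C. Here too every exposed library lay outside the range of its controls, on the lower side, with a log2 fold change of -0.51 ± 0.09 and an adjusted p of 0.0083. The carrier thus moved in opposite directions in separate groups of mice, each against its own 22 °C libraries. Without the 10 °C library of replicate 3 or the 22 °C library of replicate 2, the adjusted p at 10 °C was 0.051 or 0.055.

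**Figure D2:**
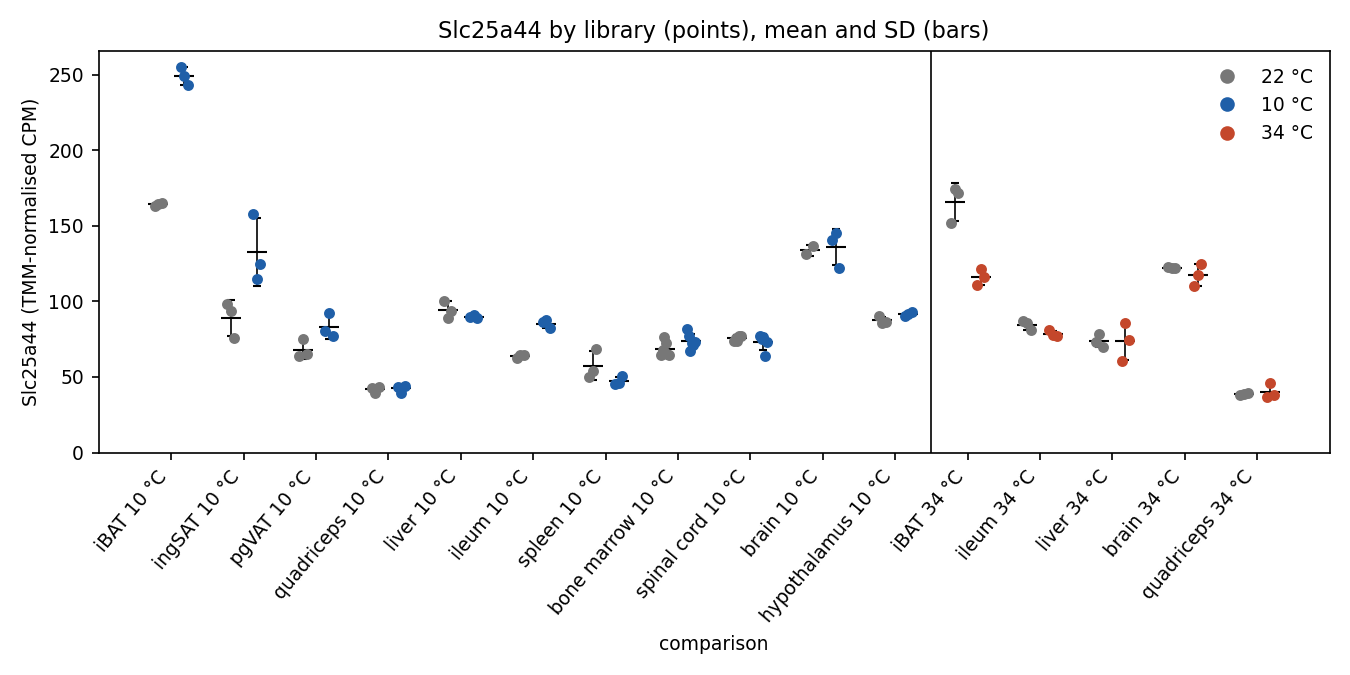
Slc25a44 in TMM-normalised CPM in each library (points) of the 16 comparisons, with the mean and SD of each group (bars). In iBAT the 10 °C libraries (243 to 255) lie above their controls (163 to 165) and the 34 °C libraries (110 to 122) below theirs (152 to 174).

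In the other tissues Slc25a44 did not pass the test. In ileum it was 62.7, 64.2 and 64.4 CPM at 22 °C and 86.1, 87.8 and 82.2 CPM at 10 °C. These groups did not overlap, with a log2 fold change of 0.42 ± 0.06 and an adjusted p of 0.062, where 0.0781% of all genes of that comparison passed. In ingSAT the values were 98.6, 93.3 and 75.9 CPM at 22 °C and 158, 115 and 125 CPM at 10 °C, a log2 fold change of 0.57 ± 0.16 with an adjusted p of 0.080. Again no library of a group reached into the range of the other. Both differences passed with DESeq2, at adjusted p of 9.2e-05 in ileum and 0.027 in ingSAT, and with edgeR's exact test, at 0.0017 and 0.036.

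Ppm1k (chr6:57506502-57535468, minus strand), the phosphatase that activates the BCKDH complex, fell in iBAT at 10 °C. It was 72.7, 80.8 and 78.8 CPM at 22 °C and 52.5, 62.7 and 59.3 CPM at 10 °C. No exposed library reached the lowest control. The log2 fold change was -0.41 ± 0.11 with an adjusted p of 0.045, close to the limit, and the call was lost when any of the 6 libraries was left out (adjusted p of 0.057 to 0.17). At 34 °C, Ppm1k in iBAT was 43.6, 31.6 and 49.5 CPM at 22 °C and 48.2, 38.2 and 55.8 CPM after exposure. These groups overlapped, and the adjusted p was 0.48.

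The iBAT comparison at 10 °C had 11.4% of all genes past the limit, and 2 of the 10 genes. Among the subunits of the BCKDH complex, Dbt was 171, 176 and 246 CPM at 22 °C and 265, 328 and 306 CPM at 10 °C. All exposed libraries were above the controls, with a log2 fold change of 0.60 ± 0.17 and an adjusted p of 0.051; without the 22 °C library of replicate 3, the highest control, it was 0.79 with an adjusted p of 0.0082. Dbt also passed with DESeq2 (adjusted p of 0.0070) and the exact test (0.012). Bckdha and Bckdhb had log2 fold changes of 0.29 ± 0.21 and 0.18 ± 0.12 with overlapping groups. For the aminotransferase Bcat2 the difference was -0.15 ± 0.22, and 1 control library, at 130 CPM, was above all the others (66.9 to 86.0 CPM). Ivd, Mccc1 and Hibadh, the distal enzymes, lay between -0.18 and 0.08 on the log2 scale. Bcat1 was at 1.62 to 2.08 CPM at 22 °C and 1.98 to 2.23 CPM at 10 °C, a log2 fold change of 0.14 ± 0.24.

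At 34 °C, 3 of the 9 genes tested in iBAT fell and none rose, in a comparison where 28.6% of all genes passed and 15.9% were lower. Mccc1 (chr3:35959312-36000678, minus strand), the biotin-carrying subunit of the leucine pathway's methylcrotonyl-CoA carboxylase, had the largest difference. It was 328, 266 and 276 CPM at 22 °C and 166, 179 and 191 CPM at 34 °C, with no overlap. The log2 fold change was -0.70 ± 0.11, a 1.62-fold decrease, with an adjusted p of 0.0060. In the cold experiment the same gene was 117 to 150 CPM at 22 °C and 117 to 156 CPM at 10 °C, with a log2 fold change of 0.02 ± 0.14.

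Bckdha (chr7:25629946-25658981, minus strand), the catalytic decarboxylase subunit, was 1077, 930 and 931 CPM at 22 °C and 690, 683 and 786 CPM at 34 °C. The exposed libraries were all lower than the controls. Its log2 fold change was -0.44 ± 0.11 with an adjusted p of 0.024, and the call was lost in 4 of the 6 fits that left out a library (lost at adjusted p of 0.059 to 0.077). Its partner Bckdhb had a log2 fold change of -0.09 ± 0.11, with overlapping groups, and Dbt one of -0.39 ± 0.18 with an adjusted p of 0.13. Without the 22 °C library of replicate 2, Dbt was at -0.54 with an adjusted p of 0.028. Bcat2 (0.24 ± 0.19), Ivd (-0.19 ± 0.17) and Hibadh (-0.17 ± 0.13) did not pass. Bcat1 was under the filter on low counts, at 0.407 to 0.887 CPM at 22 °C and 1.05 to 1.08 CPM at 34 °C.

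**Figure D3:**
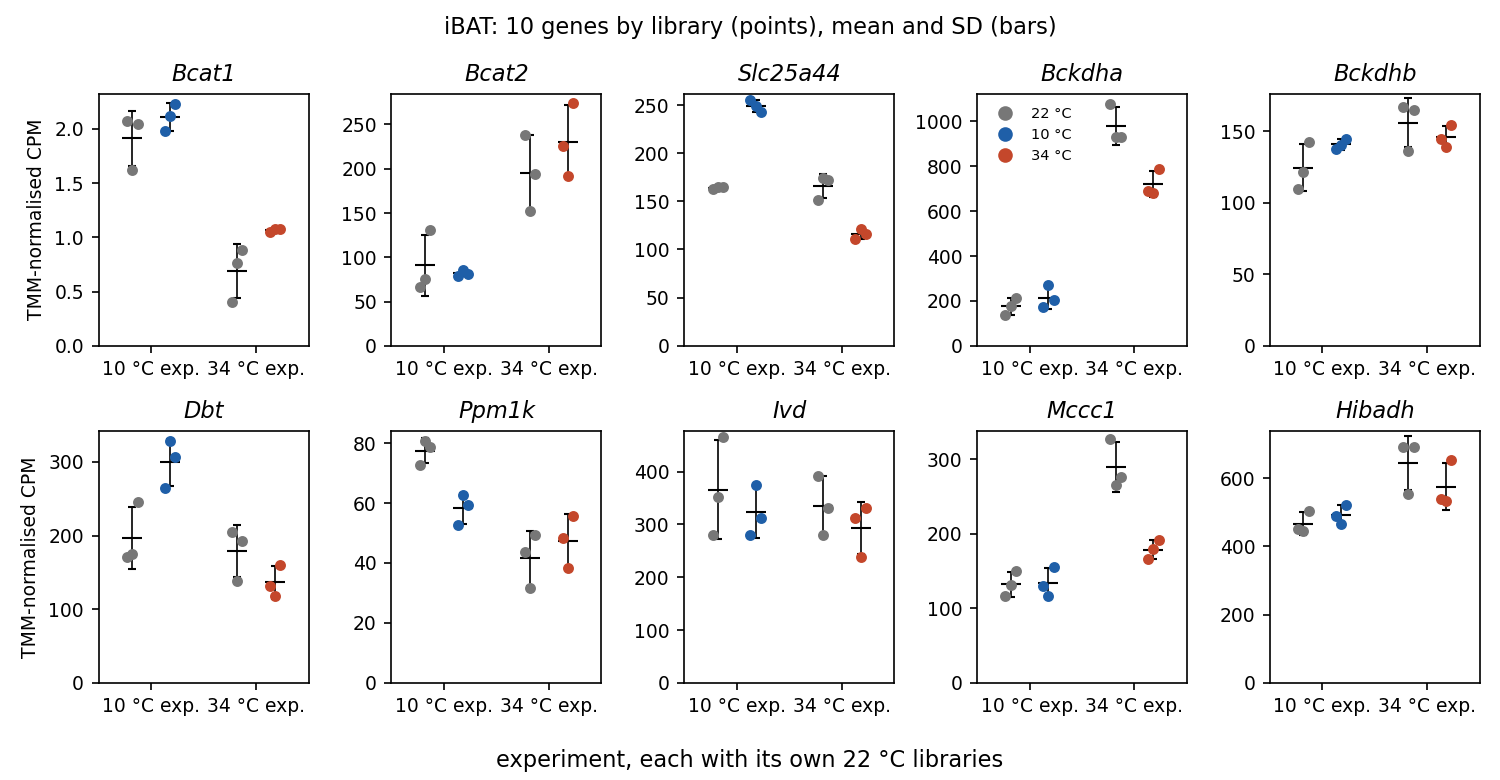
TMM-normalised CPM of the 10 genes in iBAT in each library (points) of the cold and the warm experiment, with the mean and SD of each group (bars). Slc25a44 lies above its controls at 10 °C and below them at 34 °C, while Mccc1 and Bckdha lie below their controls at 34 °C.

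The scaling mattered for the size of the warm differences. With library totals alone in place of TMM, the median log2 fold change of all genes in iBAT moved to 0.30 at 34 °C, to -0.18 at 10 °C, and in quadriceps at 10 °C to 0.25. On that scale Mccc1 was at -0.41 (adjusted p of 0.024), Slc25a44 at -0.23 (0.072) and Bckdha at -0.16 (0.27) in iBAT at 34 °C, all still lower than at 22 °C. Slc25a44 at 10 °C was at 0.43 (0.034) and Ppm1k at -0.58 (0.0081).

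Markers of cell types were also followed in iBAT. The summed CPM of 5 brown adipocyte markers (Ucp1, Cidea, Cox7a1, Cox8b, Otop1) in iBAT was 8219 to 13139 at 22 °C and 13841 to 17751 at 10 °C, and 10808 to 14729 at 22 °C and 5890 to 7285 at 34 °C. By the test, 1 of the 5 rose at 10 °C and 2 fell at 34 °C, in comparisons where 11.4% and 28.6% of all genes passed. The 6 skeletal muscle markers summed to 6049 to 8367 CPM at 22 °C and 2335 to 4907 CPM at 10 °C, and 1 of the 6 fell by the test. In the warm experiment the muscle sums were 2.88, 4444 and 8.48 CPM at 22 °C and 3513, 947 and 1096 CPM at 34 °C. These overlapped, and none of the 6 passed. The 4 hepatocyte markers all fell at 10 °C, and their sum was 52.6 to 95.9 CPM at 22 °C and 1.27 to 1.85 CPM at 10 °C, against 79525 to 84736 CPM in liver at 22 °C. The part of muscle, brown adipocyte and hepatocyte RNA in the iBAT differences, the fall of Ppm1k included, was not tested.

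The other 16 genes of the pathway, fixed as a list, give the setting. In iBAT at 10 °C, 2 rose and 1 fell, with a median log2 fold change of 0.01 over the 16, against -0.01 over all genes. Pcca, a subunit of propionyl-CoA carboxylase, rose by 0.76 ± 0.14, and Mcee, the methylmalonyl-CoA epimerase of the same route, by 0.85 ± 0.11. Aldh6a1, the methylmalonate semialdehyde dehydrogenase of valine breakdown, had a log2 fold change of -0.58 ± 0.15. At 34 °C, 8 fell and 1 rose, and the median was -0.33 against 0.01 over all genes. Among those that fell were Dld (-0.70 ± 0.12), the lipoamide dehydrogenase shared by several complexes, Pcca (-0.61 ± 0.11), Mcee (-0.59 ± 0.16), the methylmalonyl-CoA mutase Mut (-0.56 ± 0.11), the leucine enzyme Mccc2 (-0.50 ± 0.12), the thiolase Acat1 (-0.42 ± 0.13) and the BCKDH kinase Bckdk (-0.35 ± 0.10). Auh, which hydrates methylglutaconyl-CoA in leucine breakdown, rose by 0.37 ± 0.10. Pcca and Mcee thus went up at 10 °C and down at 34 °C, like Slc25a44. The fall of the group at 34 °C depended on the scaling: with library totals in place of TMM, a comparison chosen after the data were seen, only Dld fell (-0.42 ± 0.10) and Auh rose (0.65 ± 0.11), with a median of -0.04, and the median of the branched-chain genes went from -0.19 to 0.10. At 10 °C that scaling left Pcca, Mcee and Aldh6a1 past the limit in their directions, added Hsd17b10 as a fall (-0.54 ± 0.11, adjusted p of 0.015) and moved the median of the 16 to -0.16.

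Related mitochondrial genes in iBAT moved in the same comparisons. Of 5 genes of the sister complexes, pyruvate and oxoglutarate dehydrogenase, Pdhb rose at 10 °C and all 5 fell at 34 °C, with medians of 0.44 and -0.62; with library totals Pdhb no longer passed at 10 °C and 3 of the 5 fell at 34 °C, with medians of 0.27 and -0.34. Of 10 genes used as a mitochondrial reference, such as citrate synthase (Cs) and the ATP synthase genes, none passed at 10 °C, nor reached an unadjusted p under 0.05 (median 0.25), and 3 fell at 34 °C (median -0.29), where with library totals none fell and Cox4i1 rose (median -0.01).

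In ingSAT at 10 °C none of the 10 genes passed the quasi-likelihood test of edgeR, although 7.57% of all genes did. Here 6 had an unadjusted p under 0.05, as did 3909 of 13977 genes over the whole comparison. DESeq2 called 3 of the 10 and the exact test 1, and the shares these tools called over all genes are not given here. Bcat1, the cytosolic aminotransferase, was 11.5, 5.54 and 7.80 CPM at 22 °C and 4.63, 4.24 and 3.61 CPM at 10 °C. The groups did not overlap, and the log2 fold change was -0.99 ± 0.31 with an adjusted p of 0.094. Bcat2, the mitochondrial aminotransferase, was 192, 206 and 146 CPM at 22 °C and 152, 123 and 132 CPM at 10 °C. Its groups overlapped by the lowest control, with a difference of -0.42 ± 0.16 and an adjusted p of 0.15. Bckdhb (0.30 ± 0.10) and Hibadh (0.38 ± 0.13) were higher in every 10 °C library than in any control, with adjusted p of 0.12 for each. Ivd was lower in every 10 °C library, at -0.39 ± 0.17 with an adjusted p of 0.18. Bckdha (0.41 ± 0.17), Dbt (-0.05 ± 0.13), Ppm1k (-0.14 ± 0.16) and Mccc1 (-0.18 ± 0.15) did not pass either. Without the 22 °C library of replicate 3, Bcat2 (-0.52, adjusted p of 0.041), Bckdhb (0.36, 0.044) and Hibadh (0.49, 0.043) passed. The share of all genes that passed in that fit is not given here, so these calls are not shown to be particular to these genes.

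The same ingSAT libraries differed clearly in other mitochondrial genes. Of the 16 other pathway genes 4 rose: Dld (1.47 ± 0.14), Mcee (1.18 ± 0.15), Hibch (0.90 ± 0.17), the hydrolase of valine breakdown, and Acat1 (0.60 ± 0.13). Of the sister complex genes, 4 of 5 rose, with a median of 1.08, and 6 of the 10 reference genes rose, with a median of 0.70. The 10 branched-chain genes had a median of -0.10, with 4 above and 6 below 0, against -0.01 over all genes. Brown adipocyte markers summed to 146 to 209 CPM at 22 °C and 2289 to 2901 CPM at 10 °C, and macrophage markers to 242 to 566 CPM and 170 to 251 CPM. Skeletal muscle markers were 1081 to 2778 CPM at 22 °C and 25.2 to 1625 CPM at 10 °C. By the test all 5 brown adipocyte markers rose, and no macrophage or skeletal muscle marker passed. The part of these cell types in the values of the 10 genes was not tested.

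In pgVAT at 10 °C the libraries of the exposed group disagreed with each other. Replicate 2 had the highest value of all 6 libraries for 9 of the 10 genes and the lowest for Bcat1. The share of all genes for which this library was highest was not counted, so the pattern is not shown to be particular to these genes. Bcat2 was 172, 182 and 170 CPM at 22 °C and 109, 327 and 92.0 CPM at 10 °C, so that the exposed libraries lay on either side of the controls. Bcat1 was 8.31, 9.85 and 7.31 CPM at 22 °C and 7.88, 2.02 and 7.28 CPM at 10 °C. Epididymis markers (Crisp1, Adam7, Lcn5, Spint4) summed to 14954 and 16197 CPM in replicates 1 and 3 at 10 °C, to 2.02 CPM in replicate 2, and to 464 to 2622 CPM at 22 °C. The controls were uneven as well. Brown adipocyte markers summed to 9.47, 22.5 and 434 CPM in replicates 1, 2 and 3 at 22 °C, and to 34.9 to 60.7 CPM at 10 °C. Library totals at 22 °C were 23789328, 7607873 and 4262403 counts in the same order. Over all genes, 1243 of 14863 had an unadjusted p under 0.05 and 0% passed. None of the 10 genes reached that unadjusted p, nor passed the test in edgeR, DESeq2 or the exact test. The log2 fold changes lay between -0.57 (Bcat1) and 0.36 (Bckdha). A fit with replicate 2 as the lone 10 °C library was added after the data were seen. Its directions restate the values above, and as its spread comes from the 22 °C libraries alone, it says nothing of how stable they are.

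**Figure D4:**
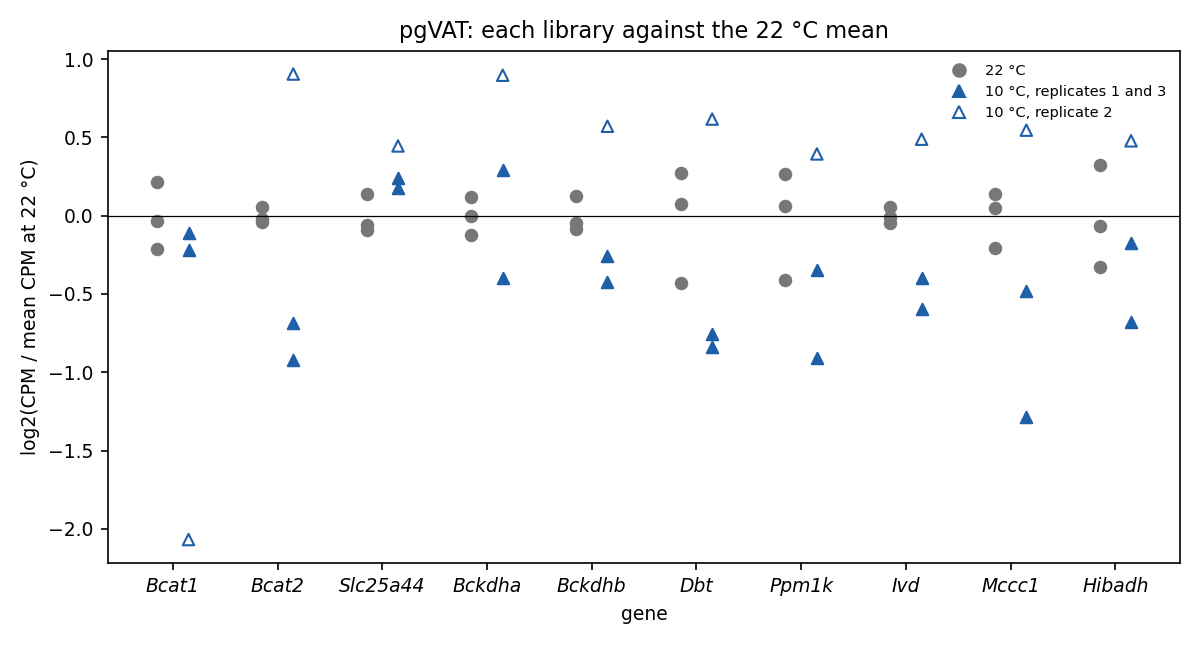
log2 ratio of each pgVAT library to the mean CPM at 22 °C, for the 10 genes (circles at 22 °C, triangles at 10 °C). The open triangle, replicate 2 at 10 °C, is the highest point for every gene except Bcat1, for which it is the lowest.

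In bone marrow, Bcat1 (chr6:144993835-145076184, minus strand) rose at 10 °C. It ranged from 3.42 to 5.74 CPM (median 3.82) in the 6 libraries at 22 °C and from 6.15 to 7.57 CPM (median 6.74) in the 6 at 10 °C. The groups did not overlap. The log2 fold change was 0.71 ± 0.13, a 1.63-fold change, with an adjusted p of 0.0037, in a comparison where 19.1% of all genes passed and 7.32% were higher. The other 9 genes lay between -0.09 and 0.10, and Bcat2 was at 0.03 ± 0.04. Of the other pathway genes, Acadsb (-0.28 ± 0.06) and Echs1 (-0.16 ± 0.05), an acyl-CoA dehydrogenase and an enoyl-CoA hydratase, fell. Markers of marrow cell types differed as well. Markers of neutrophils and their precursors summed to 18360 to 25986 CPM at 22 °C and 16802 to 18219 CPM at 10 °C, those of B cells to 315 to 446 CPM and 448 to 519 CPM, and those of red cell precursors to 3291 to 4605 CPM and 4415 to 5970 CPM. By the test, 2 of 4 neutrophil markers fell, all 3 B cell markers rose, and both red cell precursor markers that could be tested rose. The part of these cell types in the rise of Bcat1 was not tested.

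In the other 7 tissues at 10 °C none of 68 values passed edgeR's quasi-likelihood test, while 0.0516% of all gene tests did. An unadjusted p under 0.05 was reached by 7 of them. Over all genes that limit was met by 1246 of 11820 in quadriceps, 2234 of 12028 in liver and 2416 of 14081 in ileum. It was met by 1438 of 14113 in spleen, 833 of 14383 in spinal cord, 1228 of 13975 in brain and 892 of 14526 in hypothalamus. DESeq2 and the exact test each called 1 of the 68, Slc25a44 in ileum. By tissue the share of all genes that passed was 0.122% in brain, 0.0921% in spleen, 0.0781% in ileum, 0.0592% in quadriceps, 0.00695% in spinal cord and 0% in liver and hypothalamus. The log2 fold changes ran from -0.85 (Bcat1 in ileum, where its level was 0.408 to 1.86 CPM) to 0.42 (Slc25a44 in ileum). They lay between -0.15 and 0.30 in quadriceps, -0.29 and 0.16 in liver, -0.28 and 0.30 in spleen, -0.24 and 0.16 in brain, -0.05 and 0.17 in hypothalamus and -0.08 and 0.03 in spinal cord. Quadriceps, a tissue rich in Bcat2, had Bcat2 at 66.2, 81.1 and 82.0 CPM at 22 °C and at 66.9, 65.4 and 73.7 CPM at 10 °C, which overlap. In liver, Bcat1 had 0 counts in 5 of the 6 libraries, and the sixth, the 22 °C library of replicate 3, was at 0.354 CPM and also held adipocyte markers at 162 CPM, against 8.56 to 40.4 CPM in the other 5. In ileum, liver, brain and quadriceps at 34 °C none of 37 values passed, with 0.0861% of all gene tests past the limit. By tissue this was 0.385% in liver and 0% in the others. An unadjusted p under 0.05 was reached by 5 values, 4 of them in quadriceps and 1 in ileum. Over all genes it was reached by 977 of 13020 in ileum, 1250 of 11179 in liver, 366 of 13979 in brain and 485 of 11745 in quadriceps. DESeq2 and the exact test called none of the 37. Here the genes lay between -0.10 and 0.37 in ileum, -0.07 and 0.22 in liver and -0.13 and 0.11 in brain. All 9 genes tested in quadriceps had a log2 fold change above 0 at 34 °C (0.06 to 0.40), with adjusted p of 1. The median over all genes of that comparison was 0.003, and the share of all genes above 0 was not counted. Replicate 2 at 34 °C was the highest library for each of the 9, and how many other genes share this was not counted.

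Whether the effects differed between tissues was tested directly for 7 pairs of tissues. At 10 °C none of 30 tests between iBAT, ingSAT and pgVAT passed in edgeR's quasi-likelihood test, with 2 at an unadjusted p under 0.05 and 0 called by DESeq2. The share of all genes that passed was 3.61% for iBAT against ingSAT, 0.0837% for iBAT against pgVAT and 0% for ingSAT against pgVAT. For Slc25a44 the effect in iBAT minus that in ingSAT, from a joint fit of both tissues with its own scaling, was -0.03 ± 0.18. Bcat1 differed by 1.07 ± 0.39 between them, with an adjusted p of 0.15. At 34 °C, 8 of 37 tests passed, all with the lower value in iBAT. The effect on Mccc1 in iBAT was below that in ileum by -1.04 ± 0.23 (adjusted p of 0.017), in liver by -0.73 ± 0.15 (0.010), in brain by -0.68 ± 0.13 (0.0048) and in quadriceps by -0.85 ± 0.17 (0.012). For Slc25a44 the difference passed against ileum (-0.41 ± 0.11, 0.035), brain (-0.47 ± 0.10, 0.0079) and quadriceps (-0.56 ± 0.15, 0.041), and was -0.51 ± 0.17 with an adjusted p of 0.084 against liver. For Bckdha it passed against brain (-0.50 ± 0.12, 0.013). The share of all genes that passed was 13.2% against ileum, 9.23% against liver, 20.9% against brain and 8.88% against quadriceps. These 4 pairs share the iBAT libraries, and with library totals in place of TMM only Mccc1 against ileum and against quadriceps kept the call among the 8.

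The sequence before the transcription start is shown for Mccc1 and Ppm1k, which fell in iBAT at opposite temperatures. Each line gives the 250 bases before the RefSeq start on GRCm38.p6, 5′ to 3′ on the strand of the gene, with capitals on matches, on either strand, to the GC box GGGCGG, the CCAAT box, the nuclear receptor core motif AGGTCA and the cAMP response element core TGACG. RefSeq entries were found for 8 of the 10 genes.
Mccc1, chr3:36000679-36000928, minus strand: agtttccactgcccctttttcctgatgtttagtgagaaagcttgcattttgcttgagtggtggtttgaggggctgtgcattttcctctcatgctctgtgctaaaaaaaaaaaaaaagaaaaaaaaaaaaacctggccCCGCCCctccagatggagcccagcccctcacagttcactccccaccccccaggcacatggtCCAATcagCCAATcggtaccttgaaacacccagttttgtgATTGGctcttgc
Ppm1k, chr6:57535488-57535737, minus strand: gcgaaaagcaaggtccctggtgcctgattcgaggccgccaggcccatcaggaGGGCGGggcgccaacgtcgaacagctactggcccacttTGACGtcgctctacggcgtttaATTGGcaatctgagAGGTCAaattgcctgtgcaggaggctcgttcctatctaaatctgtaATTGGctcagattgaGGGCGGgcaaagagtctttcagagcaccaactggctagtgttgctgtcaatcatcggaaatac
The Mccc1 window held 1 GC box and 3 CCAAT matches, and the Ppm1k window 2 GC boxes, 2 CCAAT matches and 1 match to each of the other motifs. Over all 32851 windows of this length, 32.7% held the GC box, 33.8% CCAAT, 14% AGGTCA and 17.8% TGACG.

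The levels at 22 °C set these changes in place. They are given per kilobase of the principal mRNA, so that genes can be compared, for the 24 libraries at 22 °C of the 8 tissues counted in the same table. Values are means ± SD of 3 libraries in CPM per kb. Neighbours in the order of each gene were tested, and 27 of 70 steps passed. Of all gene tests over the same steps, 60% passed (15.7% to 79.3% by pair of tissues). The tissues of a step were picked as neighbours in level for the gene followed, which they need not be for other genes. This choice by itself favours a lower share for the genes followed, so the shares cannot be compared.

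The aminotransferases had different orders. Bcat1 was highest in hypothalamus (61.6 ± 4.32) and brain (51.6 ± 14.6), which did not differ beyond their spread. A gap of 4.01 ± 0.42 on the log2 scale separated brain from pgVAT (3.18 ± 0.318), followed by ingSAT (3.18 ± 1.1), iBAT (0.922 ± 0.119), spleen (0.716 ± 0.215), ileum (0.504 ± 0.273) and liver (0.0727 ± 0.126). The steps from ingSAT to iBAT and from ileum to liver also passed. Bcat2 was lowest where Bcat1 was highest, and ran from ingSAT (101 ± 18.3) and pgVAT (94.7 ± 1.46) over iBAT (63.2 ± 24.2) and liver (41.6 ± 3.46) to brain (10.2 ± 7.09) and hypothalamus (5.63 ± 0.539). Of these steps, liver to spleen (20.1 ± 0.618) and brain to hypothalamus passed. In the spinal cord, counted in another table and not tested against these tissues, Bcat1 was at 103 ± 3.04 CPM per kb and Bcat2 at 6.94 ± 0.758 (n = 5), and in the 6 quadriceps libraries Bcat2 was at 47.6 to 59.8.

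The means of Bckdha, Bckdhb and Dbt, the subunits of the BCKDH complex among the 10 genes, and of the carrier were highest in iBAT and next in liver. Slc25a44 was 57.7 ± 0.776 in iBAT and 41.4 ± 2.88 in liver, a step of 0.48 ± 0.11 that passed, and its level was lowest in spleen (13.5 ± 1.98), a 4.27-fold range that was the narrowest of the 10 genes. Bckdha was 114 ± 25.5 in iBAT and 49.6 ± 5.53 in liver, Bckdhb 104 ± 14.3 and 72.7 ± 3.65, and Dbt 73.6 ± 16 and 52.8 ± 7.39. The first of these steps passed for Bckdha and Bckdhb, and that of Dbt (0.48 ± 0.43) did not. At the low end, Bckdha was 3.82 ± 0.490 in ileum and Bckdhb 5.47 ± 0.612. Ppm1k followed another order, with liver (56.5 ± 8.23) above brain (24.4 ± 12.3) and iBAT (17.2 ± 1.06).

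The distal enzymes were high in fat and liver. Hibadh had the highest level of the 10 genes, at 315 ± 23.4 in iBAT and 261 ± 34.9 in liver, which did not differ beyond the spread. Ivd was 123 ± 32.2 in iBAT, 108 ± 14.1 in ingSAT and 105 ± 13.9 in liver, and Mccc1 66.5 ± 8.73, 63.1 ± 10.2 and 36.2 ± 4.84 in the same tissues, with no neighbouring step past the limit among them. With all brain libraries included, Hibadh was lowest in hypothalamus, Ivd in ileum and Mccc1 in spleen (7.49 ± 0.962).

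**Figure D5:**
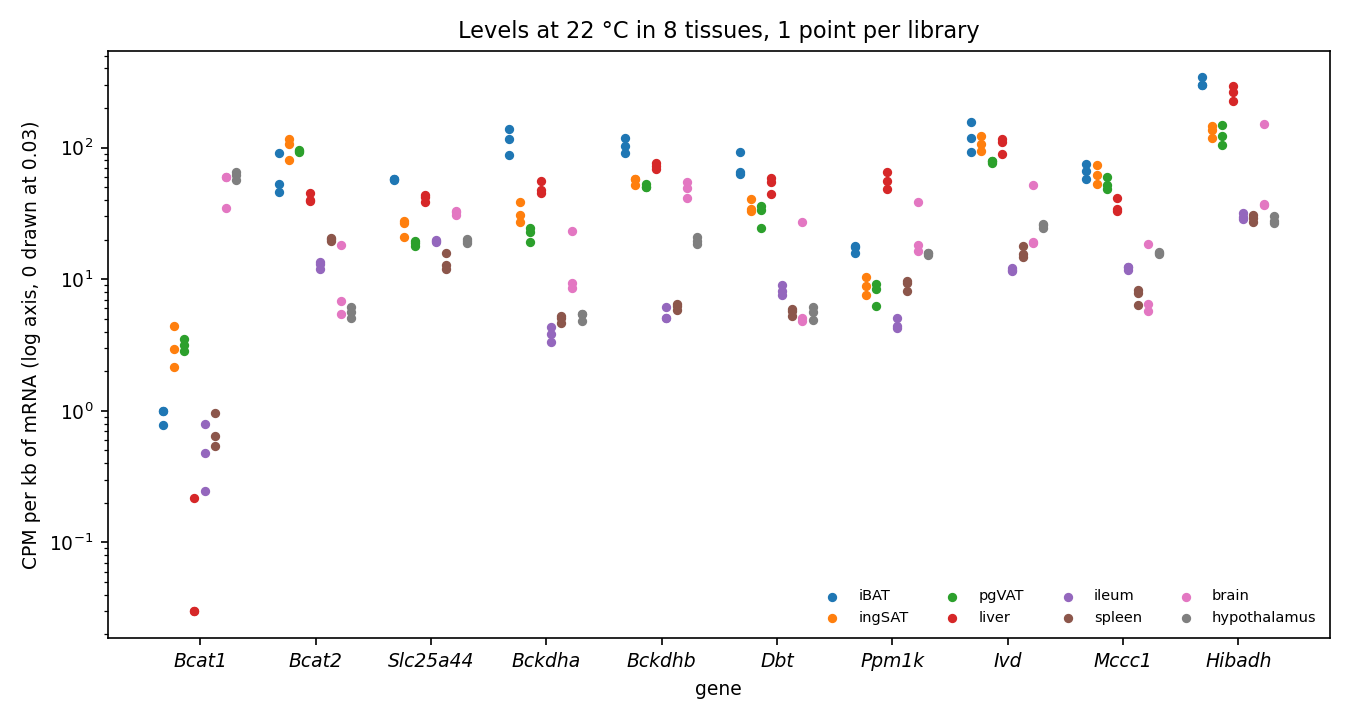
Level at 22 °C of each gene in each library (points) of 8 tissues, in CPM per kb of mRNA on a log axis, with values of 0 drawn at 0.03. Bcat1 is highest in brain and hypothalamus and the other genes in fat or liver; 1 brain library lies above the other 2 brain points for every gene but Bcat1, for which it is lowest.

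The brain means above include the 22 °C library of replicate 2 with its hepatocyte RNA. It had Hibadh at 151 CPM per kb against 37.4 and 36.6 in the other brain libraries, Dbt at 27.5 against 4.85 and 5.08, and Bcat1 at 34.8 against 60.0 and 60.1. Without it the brain means were 60.0 for Bcat1, 6.13 for Bcat2, 9.01 for Bckdha, 4.97 for Dbt and 17.3 for Ppm1k. In the fit without it, 40 of the 70 steps passed, with the order of tissues kept as above. Over all genes, 22.4% to 79.3% passed in that fit, by pair of tissues, which again cannot be compared with steps picked as neighbours. The step of Bcat2 from brain to hypothalamus then no longer passed (adjusted p of 0.35), Dbt was lower in brain than in ileum, and the mean of Mccc1 was lowest in brain, at 6.06.

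Levels per kb differed between the tables, which were made at different sites with different kits. They were scaled within each table over its own set of tissues, so they are not on a shared scale between tables. In iBAT at 22 °C, Bckdha was 114 ± 25.5 CPM per kb in the cold experiment and 396 ± 33.3 in the warm, Ppm1k 17.2 ± 1.06 and 5.73 ± 1.19, and Slc25a44 57.7 ± 0.776 and 36.4 ± 2.90. In liver, Bckdha was 49.6 ± 5.53 and 250 ± 19.5. With the scaling of the iBAT comparisons alone, given above, the 22 °C values of Slc25a44 overlapped between the experiments. Scaling, site, kit, supplier and age of the mice cannot be told apart here, and no test was made between tables. Bckdha overlaps the glycosyltransferase gene B3gnt8 on the opposite strand and Bcat2 the antisense transcript 0610005C13Rik, so that without strand information their reads cannot be separated.

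Over the 16 groups of the table of 8 tissues, with both temperatures, the genes most like Bcat1 in mean log2 CPM were Zfp354c (Pearson's r = 0.993), Scrn1 (0.989) and Pcdhb10 (0.989). For Bcat2 they were Steap4 (0.993), Arhgap29 (0.987) and Pde3b (0.980). For Slc25a44 they were Ndufa8 (0.978), Chchd10 (0.973) and Ndufa11 (0.971), which encode mitochondrial proteins. Among the 10 genes, Bckdha and Hibadh were closely alike (0.982). These are descriptions over 15887 genes in which the groups of a tissue share most of their pattern.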

How the data were processed

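RNA of 106 libraries had been aligned to mm10 and counted per gene; the authors deposited the raw counts as 4 tables. The study's methods and the submitters' processing notes both name STAR and HTSeq, the notes with STAR 2.5.3a and HTSeq 0.6p1. Columns with the authors' group means and comparisons (fold changes, p-values) were not used as results. The 22 °C brain libraries (2 of 3) and the quadriceps controls of each experiment were taken as the authors' group means show.

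Ensembl IDs of 1 table were matched to symbols (21583 of 21647). Each comparison was fitted with edgeR 4.0.16 (R 4.3.3): TMM scaling, genes with an average log2 CPM above 0, the quasi-likelihood F-test, two-sided, and Benjamini-Hochberg adjustment over all genes tested. The fits were tested on simulated data. Differences between tissues are interaction terms, adjusted within each pair of tissues. Levels per kb used the principal transcripts of GENCODE M21. Alternatives were DESeq2 1.42.0, edgeR's exact test, library totals for TMM, other filters, a replicate block and all 22 °C libraries. Each library was also left out in turn, except in bone marrow. Columns outside the samples numbered 0. Marker sums are TMM CPM.

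The genes, lists and tests were chosen with earlier results of these data known. The 10 genes are given by value or range in every comparison, other pathway genes by name where they passed (values of 1 are not reported here), further lists by counts and medians, and for likeness the 3 genes with the highest r for Bcat1, Bcat2 and Slc25a44. The labels give wild-type male mice and the titles give the temperature. Most libraries pool mice, and p-values measure the spread between libraries.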

Additional observations from a re-analysis of the deposited data

Results flagged for a closer look

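In spinal cord at 10 °C, 1 library, replicate 4, lay far below the other 4 for both Hibadh and Slc25a44. Hibadh was 72.5 CPM there and 88.4 to 94.2 CPM in the others, and Slc25a44 was 63.9 CPM against 73.3 to 77.0 CPM. Of 50 groups of 4 to 10 libraries tested with Dixon's limit, these 2 passed it, and chance passes about 1 in 20.

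At 34 °C the effect on Mccc1 was lower in iBAT than in ileum (-1.04 on the log2 scale), liver (-0.73), brain (-0.68) and quadriceps (-0.85), by the interaction test. That on Slc25a44 was lower than in ileum (-0.41), brain (-0.47) and quadriceps (-0.56), and that on Bckdha lower than in brain (-0.50). Mccc1 passed in every refit against ileum (16 of 16) and quadriceps (17 of 17) and in 15 of 16 against liver and against brain. Slc25a44 passed in 15 of 16 refits against brain, in 4 of 16 against ileum and in 7 of 17 against quadriceps, and Bckdha in 15 of 16 against brain.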

How the results depend on the processing

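At 10 °C, 3 values passed the quasi-likelihood test, 6 with edgeR's exact test and 8 with DESeq2. For counts under other tests, scalings, filters or blocks, or without a library, in this section, the share over all genes is not given. A higher count is therefore no result about these genes. Leaving out 1 library gave 1 to 6. The number was 1 without the iBAT library at 10 °C of replicate 3 or that at 22 °C of replicate 2. It was 6 without the ingSAT library at 22 °C of replicate 3. No library was left out in bone marrow, so that the rise of Bcat1 there was not put to this check and counts as kept. With no filter on low counts the number was again 3, of which 2 were shared (Ppm1k lost, Dbt gained). At 34 °C, 3 passed, against 1 with the study's limits and 1, Mccc1, with library totals, and 2 to 4 without 1 library. The 8 differences between tissues became 14 with DESeq2, 3 with library totals and 6 to 11 without 1 library. Steps between neighbouring tissues, 27 of 70, were 37 with library totals, of which 3 had the opposite order, and 25 to 40 without 1 library. Of 33 refits of called values under settings other than leaving out a library, 29 kept the call and 4 lost it. Under these settings 12 calls were gained. Fits that left out a library lost 12 calls and gained 5. No called temperature effect on these genes within a tissue changed direction in any refit. The causes were not tested.

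Same-numbered libraries of the 2 temperatures did not deviate together: 12 of 33 pairs had a correlation above 0.1 (range -0.69 to 0.43), and in 0 of 10 tissues was every library closest to its own number. With the replicate number as a block, 4 values passed at 10 °C, Dbt in iBAT (0.62, adjusted p of 0.022) in addition, and 8 differences between tissues.

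Bcat1 was not tested in quadriceps, liver and, at 34 °C, iBAT and ileum, where its level was under the filter on low counts.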
